A study of Mus musculus with 8 samples.

Results

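Complex I of the respiratory chain (NADH:ubiquinone oxidoreductase) is encoded by nuclear genes whose names begin with *Nduf* and by mitochondrial genes, the *mt-Nd* genes. The nuclear members were chosen by gene name alone, as *Nduf* followed by a, ab, b, c, s, v or af and a number, without names ending in -ps. The rule found 49 genes among the 55401 of the deposited table. By GENCODE M21, 46 are protein-coding and 3 (*Ndufb4c*, *Ndufs6b* and *Ndufa11b*) are processed pseudogenes, that is, intronless copies made from an mRNA. Of the 46, 36 encode complex I subunits and 8 encode NDUFAF assembly factors. The other 2 are *Ndufa4*, whose protein is now assigned to complex IV, and its paralog *Ndufa4l2*.

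Kidney RNA of diabetic mice was sequenced in 8 libraries, each of which is taken here as 1 mouse by the number in its label. Mice 1, 2, 3 and 5 of one group were treated with rFGF4, a recombinant form of fibroblast growth factor 4 whose structure was modified to remove mitogenic activity, and mice 2, 3, 4 and 5 of the other group served as controls. The labels give the genotype of the control mice as a *db*/*db* model (mice that lack a working leptin receptor and become obese and diabetic). The paper instead describes the sequenced animals as mice made diabetic with streptozotocin (STZ) and the controls as PBS vehicle-treated. Whether the data can tell these models apart was not tested. The labels give no age, dose or duration. The paper's methods describe a single regimen for rFGF4-treated male diabetic mice of either model, intraperitoneal injection every other day over several weeks, and do not describe the sequenced mice separately. There was no non-diabetic group, so a level cannot be related to the healthy kidney here. Nothing states that mice with the same number were paired.

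Levels are given as FPKM, in which fragment numbers are divided by exon length and by the size of each library, so they can be compared between genes. The table gives no counts, so neither library depth nor counting error is known. Genes with at least 0.5 FPKM in 4 or more of the 8 libraries were tested with limma on the log2(FPKM + 1) scale, 15150 genes in all. A log2 fold change is rFGF4 minus vehicle on that scale, given with its standard error, and it understates changes of genes with low levels. Of the 49 members, 48 passed the filter, and *Ndufa11b* was listed at 0 in all 8 libraries.

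Complex I takes electrons from NADH in the mitochondrial matrix, passes them to ubiquinone and pumps protons across the inner membrane. It has an L shape, with a peripheral arm in the matrix that holds the electron carriers and a membrane arm that holds the pumps. The pumps are encoded by mitochondrial DNA, the carriers by nuclear core genes, and a shell of nuclear-encoded accessory subunits surrounds both. Kidney tubules, above all the proximal tubule, depend on mitochondrial respiration for solute transport.

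Nuclear complex I transcripts were slightly lower in rFGF4-treated mice than in vehicle-treated mice. The log2 fold change was below 0 for 43 of the 48 tested members, whereas 32.9% of all tested genes were lower. Its median over the members was -0.17, against 0.09 over all tested genes. The lowest value was -0.51 (*Ndufa5*) and the highest 0.17 (*Ndufa4*). No member passed an adjusted p of 0.05 with limma (Benjamini-Hochberg over all tested genes, smallest 0.918), and neither did any other gene (0.0%). An unadjusted p under 0.05 was reached by 4 members, all lower in rFGF4-treated mice, against 1.06% of all tested genes lower and 3.56% higher at that threshold. With the study's further condition of a fold change of at least 1.5, 0 members passed, against 1.52% of all tested genes.

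The 4 members with an unadjusted p under 0.05 were *Ndufa6*, *Ndufb6*, *Ndufa1* and *Ndufs8*. Their promoters, taken from RefSeq on GRCm38.p6 from 250 bases before to 50 bases after the transcription start, are shown as the regulatory sequence of the genes with the smallest p. Capitals mark a match, on either strand, to the recognition sequence of NRF1 or of ETS factors such as GABP, regulators known to act on respiratory chain genes.
Ndufa6 promoter, chr15:82354242-82354541, minus strand: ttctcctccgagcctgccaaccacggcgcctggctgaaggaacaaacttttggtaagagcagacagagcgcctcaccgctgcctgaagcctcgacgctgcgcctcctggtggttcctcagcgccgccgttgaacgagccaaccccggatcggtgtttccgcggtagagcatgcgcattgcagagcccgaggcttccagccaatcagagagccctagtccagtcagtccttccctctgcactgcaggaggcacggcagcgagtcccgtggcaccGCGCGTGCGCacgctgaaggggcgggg
Ndufb6 promoter, chr4:40279372-40279671, minus strand: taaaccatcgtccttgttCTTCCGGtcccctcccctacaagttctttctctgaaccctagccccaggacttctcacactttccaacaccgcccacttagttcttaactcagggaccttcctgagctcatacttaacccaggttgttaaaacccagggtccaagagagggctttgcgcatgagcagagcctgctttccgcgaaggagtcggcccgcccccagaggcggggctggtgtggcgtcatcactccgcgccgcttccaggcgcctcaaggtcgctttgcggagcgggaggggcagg
Ndufa1 promoter, chrX:37191189-37191488, minus strand: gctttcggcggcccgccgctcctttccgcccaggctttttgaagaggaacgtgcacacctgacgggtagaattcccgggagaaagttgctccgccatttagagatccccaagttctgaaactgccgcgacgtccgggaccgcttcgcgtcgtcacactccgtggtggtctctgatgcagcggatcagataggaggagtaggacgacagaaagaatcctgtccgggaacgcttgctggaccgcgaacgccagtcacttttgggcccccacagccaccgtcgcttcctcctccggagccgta
Ndufs8 promoter, chr19:3912725-3913024, minus strand: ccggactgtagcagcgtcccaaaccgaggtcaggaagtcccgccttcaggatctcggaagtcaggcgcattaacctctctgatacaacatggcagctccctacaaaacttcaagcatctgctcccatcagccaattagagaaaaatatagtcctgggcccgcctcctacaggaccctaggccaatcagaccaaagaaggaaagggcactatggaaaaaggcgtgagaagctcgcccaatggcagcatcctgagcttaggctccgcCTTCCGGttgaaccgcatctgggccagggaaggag
The match in *Ndufa6* is to the NRF1 motif and starts 23 bases from the transcription start. Those in *Ndufb6* and *Ndufs8* are to the ETS motif, and *Ndufa1* had no match in this window. Promoters were found for 40 of the 49 members. The NRF1 motif, GCGCA followed by any base and GCGC, was present in 9 of them (22.5%), against 4.6% of 32851 mouse promoters of the same length. The YY1 motif, AAGATGGCG, was present in 6 (15.0%), against 1.4% of all promoters. The ETS motif, CCGGAAG, was also present in 6 (15.0%), against 8.86%, and the estrogen-related receptor motif, AAGGTCA, in 3 (7.5%), against 4.72%. In all, 20 members held at least 1 of the 4 motifs. A member was counted if any promoter of its gene matched, whereas the shares over all promoters count each promoter singly. These shares are thus not measured alike, and a gene with several promoters counts more easily as holding a motif. Both strands were searched, and a match is a description of the letters, not of binding.

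*Ndufa6* (chr15:82350140-82354322 on GRCm38), an accessory subunit of the LYR-motif family that anchors the acyl carrier protein to the peripheral arm, had the smallest p of the members. Its level was 41.0, 42.9, 49.9 and 45.9 FPKM in rFGF4-treated mice 1, 2, 3 and 5, and 58.3, 52.3, 56.4 and 54.3 FPKM in vehicle-treated mice 2, 3, 4 and 5. All 4 treated mice lay below all 4 control mice, with means of 44.9 ± 3.89 and 55.3 ± 2.58 FPKM (SD, n = 4). The log2 fold change was -0.30 ± 0.11 (SE), with an unadjusted limma p of 0.0215 and a two-sided exact permutation p of 0.0286, which is the lowest value possible with groups of 4.

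*Ndufb6* (chr4:40270591-40279421), an accessory subunit of the distal membrane arm, was measured at 73.0, 83.3, 80 and 89.1 FPKM in the treated mice and at 98.5, 105, 106 and 90.1 FPKM in the controls. The groups did not overlap, but treated mouse 5 and control mouse 5 were 89.1 and 90.1 FPKM. The log2 fold change was -0.29 ± 0.11, with a limma p of 0.0326. An exon of *Ndufb6* overlaps one of *Smim27* on the other strand, and the sources used here do not say that strand was kept, so the reads of these genes cannot be told apart there.

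*Ndufa1* (chrX:37187588-37191163), a small accessory subunit at the joint of the arms and one of the complex I genes on the X chromosome, was the second most abundant member. Treated mice had 131, 170.4, 153 and 176 FPKM, and controls had 190.3, 221, 202 and 179 FPKM. The groups were again apart, by 3 FPKM between the mice numbered 5. The log2 fold change was -0.33 ± 0.14, with a limma p of 0.0445.

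*Ndufs8* (chr19:3908863-3912774) encodes the core subunit that carries iron-sulfur clusters on the path to ubiquinone. It was measured at 58.9, 83.5, 79.8 and 86.9 FPKM in treated mice and at 103, 104, 112 and 82.5 FPKM in controls. Control mouse 5 lay among the treated mice, and treated mouse 1 was lower than every other mouse. The log2 fold change was -0.38 ± 0.16, with a limma p of 0.0453 and an exact permutation p of 0.0857.

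These 4 calls did not hold under all of the 21 alternatives to the processing or the set of mice. The unadjusted limma p was 0.05 or above in 7 of them for *Ndufa6*, 12 for *Ndufb6*, 13 for *Ndufa1* and 12 for *Ndufs8*, and at its highest was 0.207, 0.282, 0.3 and 0.326 in that order. The log2 fold change stayed below 0 in every alternative for all 4 genes.

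In addition, *Ndufb7* and *Ndufb2*, accessory subunits of the distal membrane arm, did not overlap between groups although their limma p values were 0.0578 and 0.103. *Ndufb7* had 23.1, 28.5, 23.8 and 27.9 FPKM in treated mice and 29.9, 38.6, 30.3 and 28.9 FPKM in controls. *Ndufb2* had 5.79, 5.80, 5.32 and 5.74 FPKM in treated mice and 6.94, 8.13, 6.23 and 5.94 FPKM in controls, and its exons overlap those of *Braf*, *Gm16272* and *Gm42420*. The gaps between the closest mice were thus small for both. Together with *Ndufa1*, *Ndufa6* and *Ndufb6*, 5 members were apart and lower in rFGF4-treated mice, against 0.667% of all tested genes. None was apart and higher, against 2.66%.

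**Figure D1:**
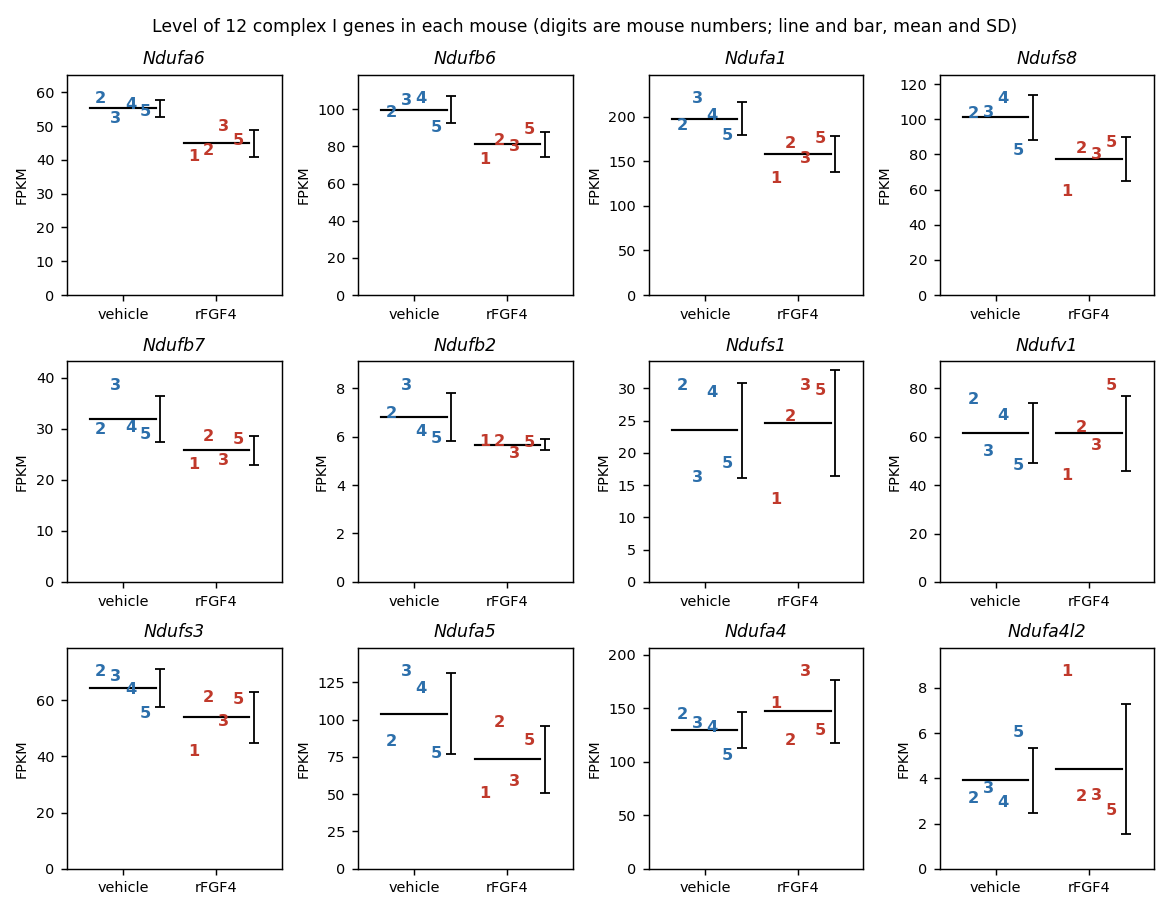
FPKM (vertical axes, starting at 0) of 12 complex I genes in vehicle-treated (blue) and rFGF4-treated (red) mice, where each digit is a mouse number, the black line the group mean and the bar its SD (n = 4). In the panels of Ndufa6, Ndufb6, Ndufa1, Ndufb7 and Ndufb2 the groups do not overlap, while in those of Ndufs1 and Ndufv1 they share much of their range.

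The core subunits, which carry out electron transfer, had unequal log2 fold changes. Apart from *Ndufs8*, the log2 fold change was -0.26 ± 0.15 for *Ndufs3*, -0.17 ± 0.13 for *Ndufs7* and -0.16 ± 0.16 for *Ndufv2*. It was closer to 0 for *Ndufv1*, at -0.01 ± 0.22, and for *Ndufs1*, at 0.04 ± 0.32. None of these 5 had a p under 0.05.

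*Ndufs1*, the largest subunit of complex I, had 12.8, 25.7, 30.5 and 29.6 FPKM in treated mice and 30.4, 16.1, 29.4 and 18.3 FPKM in controls. *Ndufv1*, which binds NADH and flavin, had 43.9, 63.8, 56.6 and 81.4 FPKM in treated mice and 75.3, 54.0, 68.7 and 48.3 FPKM in controls. For both genes, treated mouse 1 was the lowest of all mice, and control mice 3 and 5 were the lower of the controls. The low level in control mouse 3 differed from the pattern of many members, since 23 of the 48 had their highest control value in that mouse. *Ndufs1* was 1 of 5 members, with *Ndufa11*, *Ndufa6*, *Ndufaf4* and *Ndufc2*, whose lowest control value was in mouse 3.

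Accessory subunits had log2 fold changes below 0 in every structural class. In the peripheral arm, 9 of 9 were lower, with a median log2 fold change of -0.22. Within this class, *Ndufa5* had the lowest value of all members, -0.51 ± 0.26, with a limma p of 0.0904. It had 50.7, 98.4, 58.8 and 86.3 FPKM in treated mice and 85.0, 132, 121 and 77.0 FPKM in controls, so the groups overlapped. In the proximal membrane arm, 9 of 9 were below 0 (median -0.20), and they reached from -0.38 (*Ndufc1*) to -0.00 (*Ndufs5*). In the distal membrane arm, 10 of 10 were lower (median -0.23), from -0.34 (*Ndufb4*) to -0.13 (*Ndufb3*). The mitochondrial acyl carrier protein, *Ndufab1*, which also serves fatty acid synthesis, was at -0.06 ± 0.12. Over the 36 subunits, 35 were lower and the median was -0.21.

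The NDUFAF assembly factors, which build the complex but are not part of it, were lower for 6 of 8, with a median of -0.12. Their values ran from -0.21 (*Ndufaf3*) to 0.05 ± 0.11 (*Ndufaf5*), and none had a p under 0.05. Of 10 other assembly factors, among them *Acad9*, *Ecsit* and *Timmdc1*, 6 were lower and 4 higher. Their median was -0.03, and none had a p under 0.05.

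*Ndufa4* and *Ndufa4l2* were 2 of the 5 members above 0. *Ndufa4* had 154, 119.5, 184 and 129 FPKM in treated mice and 144, 136, 132 and 106 FPKM in controls, with a log2 fold change of 0.17 ± 0.17 and a limma p of 0.365. *Ndufa4l2*, known as a hypoxia-induced gene with pericyte expression, had 8.71, 3.18, 3.26 and 2.57 FPKM in treated mice and 3.10, 3.57, 2.93 and 6.02 FPKM in controls, with a log2 fold change of 0.06 ± 0.34. It was highest in treated mouse 1 and control mouse 5, which were the mice with the lowest levels of most subunits in their groups.

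**Figure D2:**
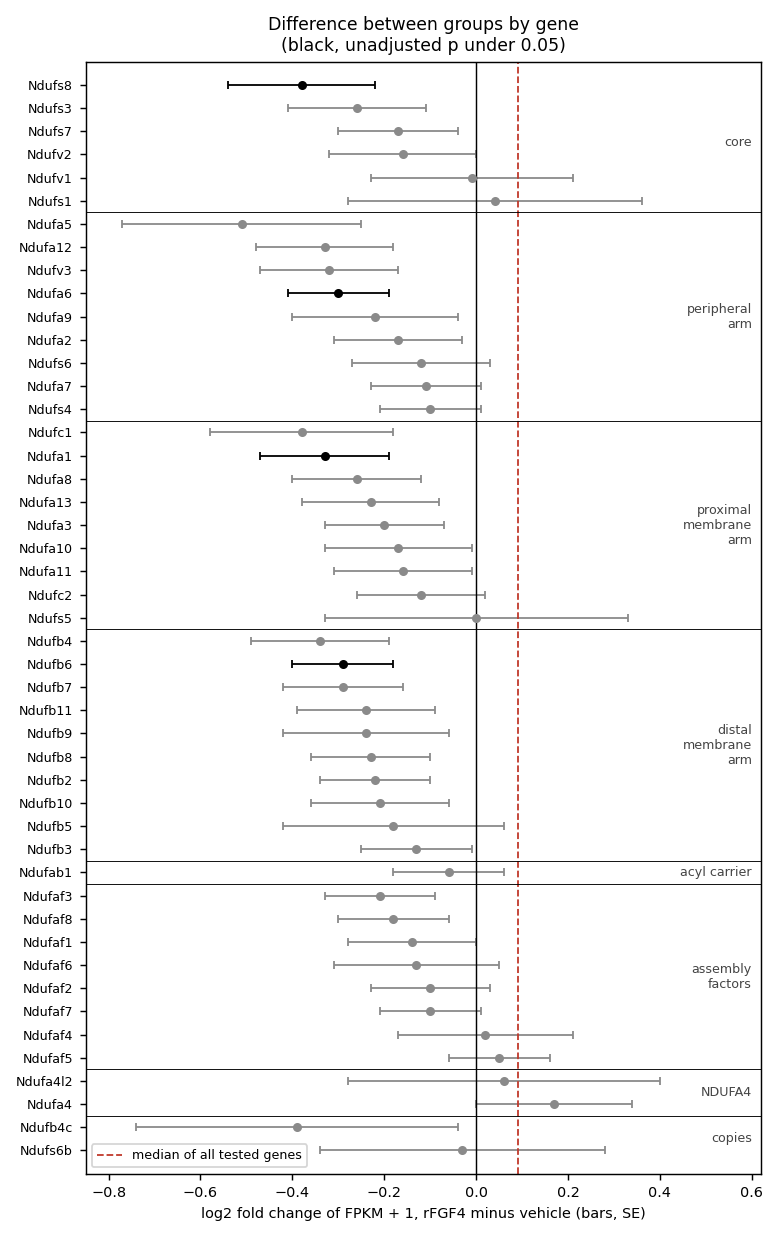
Log2 fold change of FPKM + 1, rFGF4 minus vehicle (horizontal axis), of 47 tested complex I genes by structural class, with bars for the SE and black points for an unadjusted limma p under 0.05. Points to the left of the solid line at 0 were lower in rFGF4-treated mice, 42 of 47, and the dashed line marks the median of all tested genes, 0.09.

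Levels differed between members by far more than between groups. The highest means over all mice were those of *Ndufb9* (207 FPKM), *Ndufa1* (178 FPKM) and *Ndufa2* (168 FPKM), all accessory subunits. *Ndufb9* had 148, 198, 179.7 and 235 FPKM in treated mice and 243, 222, 246 and 180 FPKM in controls, with overlap between the groups. At the low end were *Ndufaf4* (2.49 FPKM) and *Ndufa4l2* (4.17 FPKM), above *Ndufa11b* at 0. The members' transcripts were short, with a median longest transcript of 1111.5 bases in GENCODE M21, against 2843 bases over all tested genes. Among tested genes of up to 1000 bases the median log2 fold change was 0.01, and over the 21 members of that length it was -0.18. Between 1000 and 2000 bases these medians were 0.04 and -0.18 (16 members).

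Single mice of a group differed by more than the group medians did. The median deviation of the 48 members from their 8-mouse means, on the log2 scale, was -0.33, 0.01, -0.14 and 0.04 in treated mice 1, 2, 3 and 5. In control mice 2, 3, 4 and 5 it was 0.15, 0.18, 0.15 and -0.10. Treated mouse 1 was thus the lowest, and control mouse 5 lay within the range of the treated mice. Of the 48 members, 37 had their lowest level of all in treated mouse 1, and 36 had their lowest control level in control mouse 5. Over all tested genes the median deviation was 0.28 in treated mouse 1 and 0.11 in control mouse 5, the highest of their groups. The summed level of the members was 2420, 3058, 2842 and 3242 FPKM in treated mice and 3412, 3545, 3423 and 2832 FPKM in controls.

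**Figure D3:**
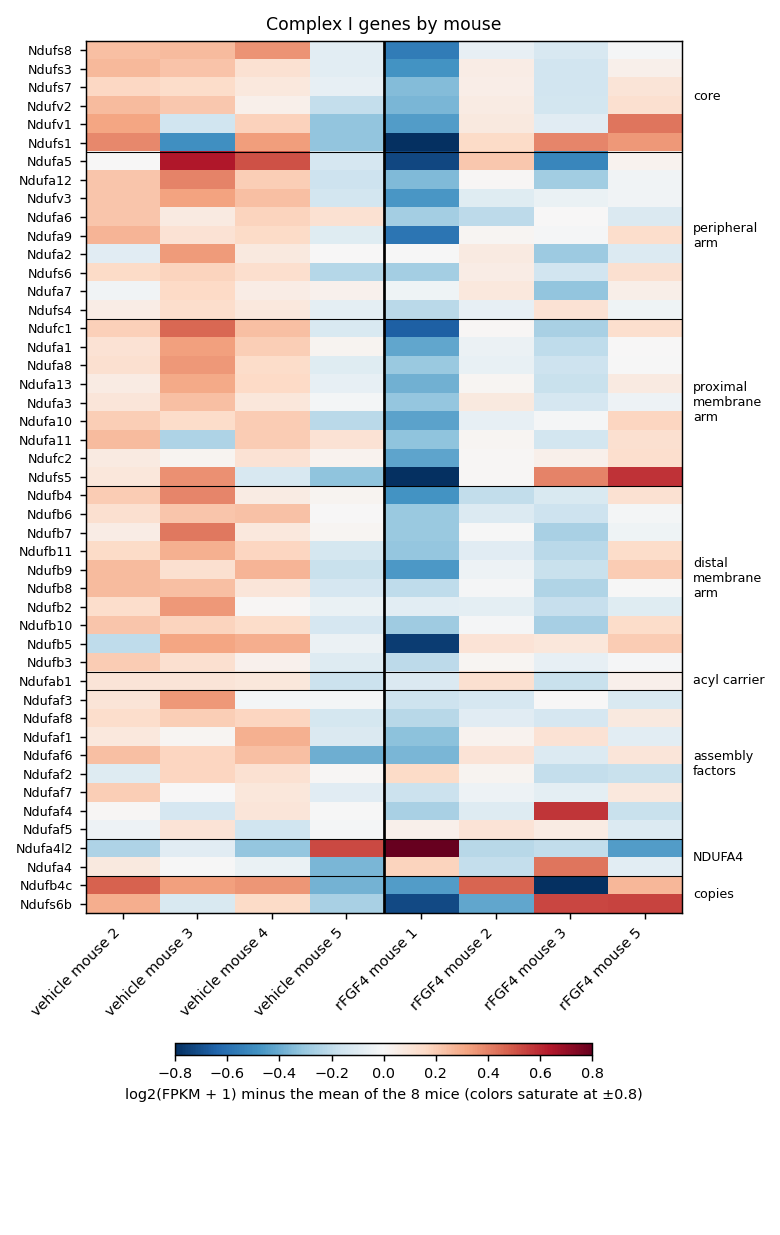
Deviation of log2(FPKM + 1) from the mean of the 8 mice (color, saturating at 0.8) for 47 tested members (rows, by structural class) in each mouse (columns). Most rows are blue (low) in rFGF4 mouse 1, rFGF4 mouse 3 and vehicle mouse 5, and red (high) in vehicle mice 2, 3 and 4.

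Without treated mouse 1, 38 members were lower, against 47.8% of all tested genes, and the median over the members was -0.13 against 0.01. In that fit only *Ndufa6* kept a p under 0.05 (1.32% of all tested genes lower), and 5 members were apart and lower against 1.85%. Without control mouse 5, 44 members were lower against 27.7%, with a median of -0.25. There, 9 had a p under 0.05 against 1.32% of all tested genes lower at that threshold, and 19 were apart and lower against 1.89%. Without treated mouse 2 or 3, 1 member had a p under 0.05, against 0.812% and 0.792% of all tested genes lower. Without control mouse 3 there was 1, against 0.944%, and without control mouse 2 or 4 there were 0 (limma), against 0.779% and 0.878%. Without treated mouse 5 there were 6, against 2.16% of all tested genes lower. In the latter fit 44 members were lower against 30.0%, and 6 were apart and lower against 2.26%. The direction of the median was the same without each mouse.

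Markers of cell types also differed between mice. The summed level of 5 macrophage markers was 427, 183, 59.5 and 34.6 FPKM in treated mice and 25.5, 101, 25.7 and 459 FPKM in controls, so in each group it was highest in the mouse where the members were lowest. The 10 proximal tubule markers summed to 807, 2089, 2505 and 2475 FPKM in treated mice and 2502, 1767, 2772 and 1626 FPKM in controls, lowest in the same mice of each group. The 5 red blood cell markers were lower for 5 of 5 (median log2 fold change -1.97, smallest limma p 0.0615). Their sum ranged from 120.3 to 2657 FPKM in treated mice and from 1139 to 4325 FPKM in controls, again lowest in those mice, and the 3 distal convoluted tubule markers were lowest there too, at 29.8 and 95.3 FPKM. The 5 lymphoid markers summed to 47.5 FPKM in control mouse 5 and to at most 6.34 FPKM elsewhere. In treated mouse 1 and control mouse 5, the 4 thick ascending limb markers had the lowest sums of their groups, 963 and 860.1 FPKM. So did the 5 collecting duct principal cell markers, at 207 and 254 FPKM (next lowest 219.7 and 258 FPKM). The endothelial, intercalated cell and podocyte lists did not follow the members in both groups. The 5 endothelial markers were lower for 5 of 5 (median -0.22), but their sum was highest in control mouse 5, at 41.8 FPKM against 27.8 to 36.6 FPKM in the other controls. The 5 intercalated cell markers summed to 71.0 FPKM in treated mouse 1 and to 66.3 FPKM, the lowest treated value, in treated mouse 3. Among controls their sum was lowest in control mouse 5, at 63.3 FPKM. The 5 podocyte markers were all higher in treated mice (median log2 fold change 0.26). Their sum was 64.6 to 90.5 FPKM in treated mice and 46.0 to 84.8 FPKM in controls. Of these, *Synpo* (named after its values were seen) had a limma p of 0.0195 and a log2 fold change of 0.87 ± 0.30. The extraction protocol speaks of an adipose type, but the 5 adipose markers summed to at most 0.806 FPKM in any mouse. In bulk tissue, fewer cells of a type and less RNA per cell cannot be told apart, and the part of these transcripts in the lower members was not tested. With both mice of the highest macrophage markers left out (treated 1 and control 5), 39 members were lower against 35.3% of all tested genes, their median was -0.18, 8 had a p under 0.05 against 1.46% of all tested genes lower, and 19 were apart and lower against 3.25%. With the mean macrophage marker level as a covariate, 40 members were lower against 40.8% of all tested genes, and 5 had a p under 0.05 against 2.55% lower.

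The mitochondrially encoded subunits of the same complex, which form the proton pumps, were lower for 7 of 7, with a median log2 fold change of -0.57. Their summed level was 26635, 34484, 46287 and 61829 FPKM in treated mice and 72918, 64442, 67925 and 42144 FPKM in controls, lowest in the same mice of each group as the nuclear members. *mt-Nd3* had 1273, 1733, 1842 and 2669 FPKM in treated mice and 3211, 3734, 3015 and 2149 FPKM in controls, with a log2 fold change of -0.71 ± 0.30 and a limma p of 0.0433. The groups overlapped at control mouse 5, and the other 6 *mt-Nd* genes, at -0.65 to -0.53, had no p under 0.05. All mitochondrially encoded genes together took 18.96 to 35.98% of the summed FPKM in treated mice and 24.42 to 38.35% in controls. With them removed and each library rescaled, 38 nuclear members were still lower against 22.1% of all tested genes, with a median of -0.08 against 0.16. At an unadjusted p under 0.05 there were then 0 members (limma, 0.562% of all tested genes lower), and 0 were apart and lower against 0.337%. When each library was instead scaled to a common median ratio, 47 members were lower against 52.4%, with a median of -0.30 against -0.01. With this scaling 1 member, *Ndufa6*, had a p under 0.05 against 2.44% of all tested genes lower, and 0 were apart and lower against 1.52%. With weights for the quality of each library, 42 members were lower against 32.3%, and 12 had a p under 0.05 against 2.95%. With quantile normalization 2 members had a p under 0.05 against 1.86% of all tested genes lower, and 1 was apart and lower against 0.97%. With the trend on transcript length removed these counts were 2 against 2.1% and 0 against 1.36%.

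**Figure D4:**
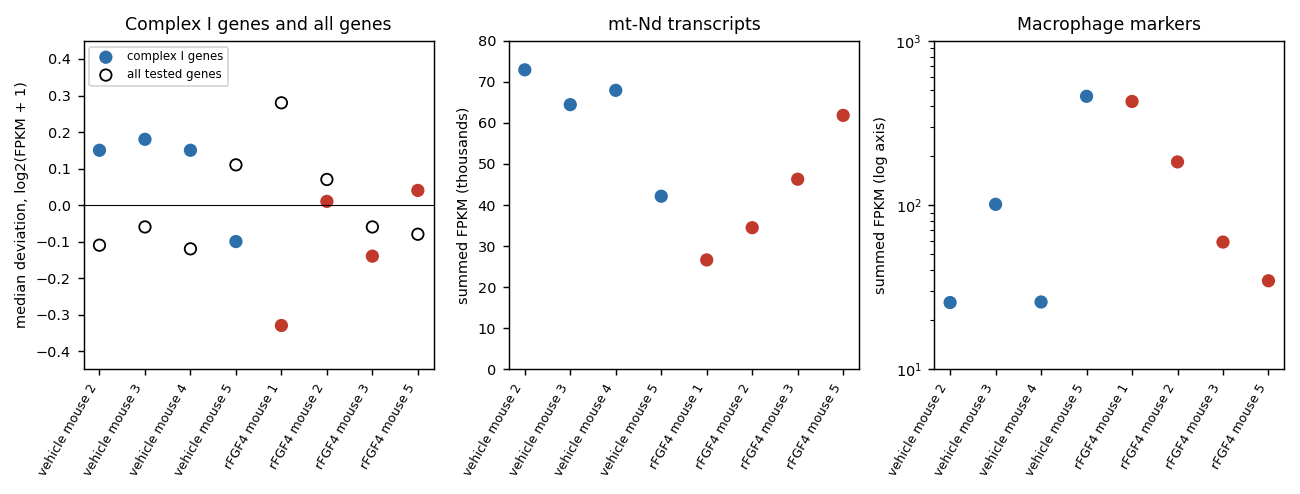
By mouse (blue, vehicle; red, rFGF4), the median deviation of the 48 complex I genes (filled) and of all tested genes (open) from the 8-mouse means on the log2(FPKM + 1) scale (left), the summed FPKM of the 7 mt-Nd transcripts (middle, axis divided by 1000) and that of 5 macrophage markers on a log axis (right). The complex I median was lowest in rFGF4 mouse 1 (-0.33) and, among controls, in vehicle mouse 5 (-0.10), the mice with 427 and 459 FPKM of macrophage markers.

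The nuclear-encoded subunits of respiratory complexes II to V, chosen by name, gave values close to those of complex I. Of 47 tested genes 41 were lower, against 32.9% of all tested genes, and their median was -0.20. A p under 0.05 was reached by 1 of them, lower, against 1.06% of all tested genes lower. No test of a difference between them and complex I was made.

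Of 10 transcriptional regulators of respiratory chain genes, 4 were lower and 6 higher, with a median of 0.09, and none had a p under 0.05. *Ppargc1a*, a coactivator that drives mitochondrial biogenesis, had 5.0, 7.48, 7.44 and 9.09 FPKM in treated mice and 9.92, 7.67, 8.72 and 6.70 FPKM in controls, with a log2 fold change of -0.18 ± 0.19. *Esrra*, the estrogen-related receptor that PGC-1α coactivates, had 8.80, 11.9, 16.7 and 14.9 FPKM in treated mice and 14.8, 19.4, 23.1 and 13.3 FPKM in controls, with a log2 fold change of -0.41 ± 0.23 and a limma p of 0.113. Both were lowest in treated mouse 1 and, among controls, in mouse 5, as were most members. *Nrf1* was measured at 0.714 to 1.21 FPKM in treated mice and 0.614 to 1.18 FPKM in controls (0.10 ± 0.15). The smallest p of the list was that of *Yy1*, at 12.6, 10.5, 9.87 and 9.56 FPKM in treated mice and 7.61, 8.07, 8.59 and 10.1 FPKM in controls, with a log2 fold change of 0.28 ± 0.13 and a limma p of 0.0669. The GABP subunit gene *Gabpa* was at 0.14 ± 0.13, and both genes were named after their values were seen.

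Some members have processed copies whose sequences are nearly those of the parent mRNA. How reads were assigned between parent and copy was not tested, since the table holds no reads. These pairs were chosen after their values were seen. *Ndufs5*, an accessory subunit of the intermembrane space side, is on chr4:123712710-123718202, and its copy *Ndufs5-ps* on chr16:42955631-42955949 (GRCm38). The copy differs from the 318 coding bases of *Ndufs5* at 2 positions. Both lie in the first 150 bases, which are shown from the start codon because coding fragments that cover neither position match both genes, with the differing bases in capitals.
Ndufs5: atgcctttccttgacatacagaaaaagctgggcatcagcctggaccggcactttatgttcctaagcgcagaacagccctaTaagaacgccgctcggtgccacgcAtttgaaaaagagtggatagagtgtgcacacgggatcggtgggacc
Ndufs5-ps: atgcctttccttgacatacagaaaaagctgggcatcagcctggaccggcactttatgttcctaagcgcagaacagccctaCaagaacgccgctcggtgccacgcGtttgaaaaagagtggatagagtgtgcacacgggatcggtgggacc
*Ndufs5* had 22.3, 45.5, 59.7 and 68.0 FPKM in treated mice and 48.2, 58.4, 41.2 and 36.0 FPKM in controls. *Ndufs5-ps* was listed at 124, 164, 1.67 and 96.2 FPKM in treated mice and at 213, 211, 187 and 151 FPKM in controls. The copy held 78.3 to 81.9% of the sum in controls, but 2.72% in treated mouse 3 and 58.6% in treated mouse 5. The sum was 146, 209, 61.4 and 164 FPKM in treated mice and 261, 269, 228 and 187 FPKM in controls, with a log2 fold change of -0.81 and an exact permutation p of 0.0571, whereas *Ndufs5* alone was at -0.00 ± 0.33. The level of *Ndufs5* is uncertain in these data.

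For *Ndufa12* the copy *Ndufa12-ps*, 99.5% identical over the aligned coding bases, held 81.8 to 85.9% of the sum in every mouse, and the log2 fold change was -0.33 for the parent and -0.20 for the sum. The *Ndufb4* coding sequence is 100% identical to that of *Ndufb4c*, a member by name. *Ndufb4c* was listed at 21.3, 41.1, 13.6 and 35.6 FPKM in treated mice and 41.2, 37.3, 37.9 and 22.5 FPKM in controls, and held 26.7 to 53.7% of the sum. The log2 fold changes of *Ndufb4*, *Ndufb4c* and their sum were -0.34, -0.39 and -0.35. *Ndufs6* and *Ndufs6b* are 96.5% identical, and the copy held 3.99 to 9.49% of their sum, with log2 fold changes of -0.12 for *Ndufs6* and -0.11 for the sum. *Ndufab1-ps* held 44.1 to 56.5% of the sum with *Ndufab1*, whose value went from -0.06 to -0.18 with the copy added. *Ndufb1-ps*, which the name rule leaves out, is annotated in GENCODE M21 as a bidirectional promoter lncRNA rather than a processed copy, and its sequence was not compared. It had 33.1 ± 3.52 FPKM in treated mice and 40.8 ± 6.76 FPKM in controls (SD, n = 4), with a log2 fold change of -0.28 and a limma p of 0.0796. In all, 19 tested members have exons that overlap another gene, 3 of them on the same strand.

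**Figure D5:**
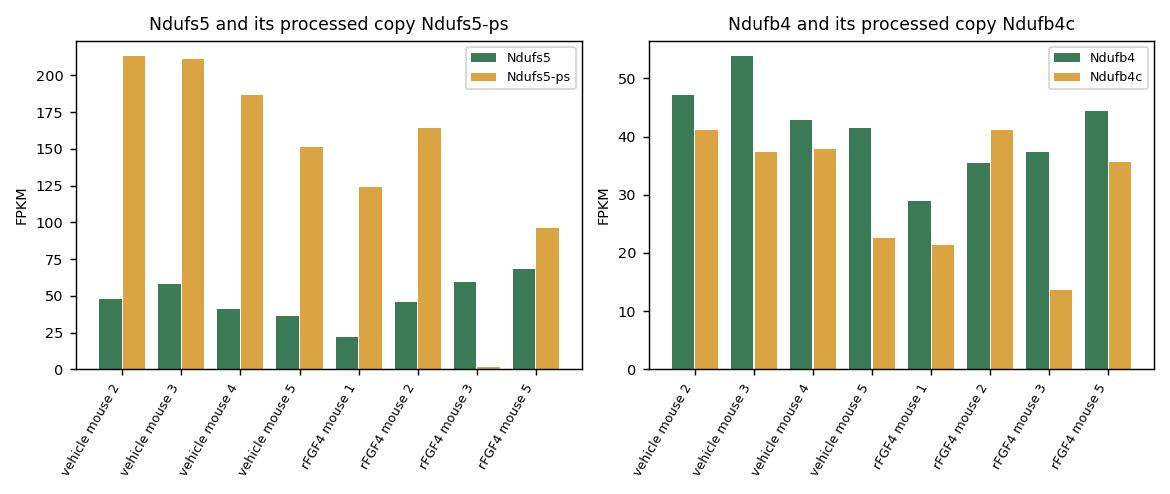
FPKM by mouse (bars from 0) of Ndufs5 and its processed copy Ndufs5-ps (left) and of Ndufb4 and its copy Ndufb4c (right). The copy bar of Ndufs5-ps is the taller in 7 of the 8 mice and close to 0 (1.67 FPKM) in rFGF4 mouse 3.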

How the data were processed

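RNA from kidneys of 8 mice was sequenced as paired-end poly(A) libraries. The authors assembled mapped reads with StringTie, merged transcripts with gffcompare and deposited FPKM per gene, with fold changes, p-values and q-values of their own comparison that were not used here. The submitters' processing notes list Bowtie 0.12.2, HISAT2 2.0, StringTie 1.3.0 and mm8 without roles. Of the gene identifiers, 99.5% were found in GENCODE M21 (GRCm38), which gave positions, gene types and lengths. Values of 0.0001 or less, which stand in place of 0, were set to 0.

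The members and lists were chosen with earlier results of these data known. Genes were tested with limma 3.58.1 in R 4.3.3 (trend in the prior variance, Benjamini-Hochberg adjustment) after a pseudocount of 1, and single genes by two-sided exact permutation. The fit was tested on simulated data with effects larger than any change of the members and independent noise for each gene. That test does not show how well changes of the members' size are found. Named were members with p under 0.05 or groups apart, core subunits, the 3 highest and 3 lowest by level and by log2 fold change, *Ndufa4*, *Ndufa4l2*, and genes of the assembly factor, *mt-Nd* and regulator lists with p under 0.05 plus *Ppargc1a*, *Esrra* and *Nrf1*. Alternatives covered the pseudocount, filter, scaling, length, weights, each mouse left out and a block. The labels do not state that each library is a separate animal, so p-values measure only the spread between these samples. Tests that need counts were not run. The values of 1 member are not reported here, although it is part of the counts and medians.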

Additional observations from a re-analysis of the deposited data

Results flagged for a closer look

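Within each group of 4 mice, the gap between the highest or lowest mouse and its nearest neighbor was divided by the range of the group, with values on the log2(FPKM + 1) scale. Of 48 groups examined, 4 exceeded Dixon's 95% limit for groups of 4, where chance alone would give about 2.4. *Ndufb2* in treated mouse 3 (5.32 FPKM, the others 5.74 to 5.80) had a ratio of 0.871. *Ndufb7* in control mouse 3 (38.6 FPKM, the others 28.9 to 30.3) had a ratio of 0.836. The copy *Ndufb4c* in control mouse 5 (22.5 FPKM, the others 37.3 to 41.2) had a ratio of 0.834. The median deviation of the members in control mouse 5 (-0.10, the others 0.15 to 0.18) had a ratio of 0.886.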

How the results depend on the processing

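The median over the members stayed below 0 in every alternative run, from -0.30 (scaling to a common median ratio, where 47 members were lower) to -0.08 (mitochondrially encoded genes removed). Relative to the median of all tested genes it was -0.26, and -0.29 and -0.24 under these scalings. The count of 4 members with an unadjusted limma p under 0.05, all lower, became 1 with the median ratio, 0 with mitochondrially encoded genes removed, 2 with quantile normalization, 2 with the transcript length trend removed, 12 with array weights and 8 without both mice of the highest macrophage markers, an alternative chosen after seeing the data. It ran from 0 to 9 when each mouse was left out in turn. The count of 5 members apart and lower became 0, 0, 1 and 0 in the first 4 of these and 19 in the last, and ran from 5 to 19 with each mouse left out. The number of genes past the study's threshold was 231, and 348 with a pseudocount of 0.1, 490 with array weights, and 187 to 575 with each mouse left out. The lower genes made up 23.0% of all calls at an unadjusted p under 0.05, but 52.1% with the median ratio, 42.3% with quantile normalization, 46.8% with the length trend removed, 7.51% with mitochondrially encoded genes removed and 35.2% with no filter. Deviations of mice with the same number from their group means had correlations of -0.229, -0.155 and -0.393 over all tested genes. These values cannot decide whether the numbers pair mice, since for mice with different numbers they ran from -0.562 to 0.567. With the replicate block over the 3 shared numbers, 0 members had a p under 0.05 (limma, 0.851% of all tested genes lower), 36 were lower against 53.3%, and the median was -0.11, or -0.10 relative to all tested genes. The same mice without a block also gave 0 (1.44% of all tested genes lower), 36 and -0.11. For single genes, 410 values kept their side of the limma p threshold, 44 lost and 8 gained a p under 0.05. None changed direction with a p under 0.05 in either fit. Several genes without such a p did change direction. *Ndufs1* went from 0.04 to -0.11 without control mouse 3, and *Ndufv1* from -0.01 to 0.13 without treated mouse 1. The cause of these shifts was not tested. Depth is unknown from FPKM, so low members such as *Ndufaf4* carry an unknown counting error.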
